A study of Mus musculus with 4 samples.

Results

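The 51 genes described here encode factors that make ribosomes, from RNA polymerase I and its factors to the proteins that process ribosomal RNA and assemble the 2 subunits. They were taken from a list of symbols that was chosen with earlier results of these data known. Of the 51, 46 had at least 1 probe on the array that could be named, 74 probes in all. Of these 46, 45 were bright enough to be tested, out of 21459 genes tested in all. Nop56, Wdr43, Utp20, Gnl3 and Ddx10 had no probe that could be named here, and the only probe of Ltv1 was not well above background in red on any array.

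The RNA came from basal cells sorted by flow cytometry from the prostates of adult FVB mice and grown in vitro as prostate spheres, a culture in which epithelial progenitors form balls of cells. One group of 2 arrays held spheres given vehicle (DMSO), and the other group of 2 held spheres given 5 µM DAPT, with the medium replaced every 24 h in both. DAPT blocks γ-secretase, a protease whose cut frees the signalling fragment of Notch receptors, and the study asked how Notch signaling regulates proliferation and differentiation of basal cells. On each array the sphere RNA was red and a universal mouse reference RNA was green, so a value is a log2 ratio of sphere over reference and a change is DAPT minus vehicle. The mice carried no allele that the labels name, γ-secretase also cuts proteins other than Notch receptors, and no array had the dyes reversed. Whether the 2 arrays of a group stand for separate cultures is not said in the labels. An SE or p-value here reflects the spread between 2 samples a group, drawn by limma toward a spread estimated over all genes. That spread may be technical.

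Ribosome production starts in the nucleolus, where RNA polymerase I transcribes a long precursor of ribosomal RNA. Small nucleolar RNAs of the box C/D and box H/ACA classes guide its methylation and pseudouridylation, nucleases cut it, and a large set of assembly factors folds it onto ribosomal proteins to form the small and the large subunit. The pathway is among the costliest of a growing cell, and the transcription factor Myc is known to bind and raise many of its genes through the sequence CACGTG, the E-box it binds with its partner Max.

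The E-box is shown first because it is the one regulatory sequence fixed for these genes. A search for CACGTG, which reads the same on both strands, covered promoter windows of 300 bases, from 250 before to 50 after each RefSeq gene start (GRCm38.p6). Of the 45 listed genes with a promoter in that table, 11 (24.4%) held it, against 8.09% of all 27025 genes of the table and 10.7% of the 11171 named genes that were tested on these arrays and had a promoter there. In promoters rather than genes, the shares were 11 of 54 (20.4%) and 2349 of 32851 (7.15%). Small subunit genes held 7 of the 11, out of 15 with a promoter (46.7%). Large subunit genes held it in 2 of 11, polymerase I genes in 1 of 6 and exosome genes in 1 of 3. No nucleolar, box C/D or box H/ACA gene held it. The stretches printed here lie before the start of Nop2 (chr6:125131796-125131855, plus strand), Utp18 (chr11:93885767-93885813, minus strand), Imp4 (chr1:34439681-34439740, plus strand) and Rrn3 (chr16:13780624-13780683, plus strand), written 5′ to 3′ along the gene with the E-box in capitals.
Nop2: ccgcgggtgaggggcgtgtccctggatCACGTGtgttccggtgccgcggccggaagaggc
Utp18: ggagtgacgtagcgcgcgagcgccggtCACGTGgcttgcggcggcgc
Imp4: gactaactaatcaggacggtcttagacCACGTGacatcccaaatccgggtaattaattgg
Rrn3: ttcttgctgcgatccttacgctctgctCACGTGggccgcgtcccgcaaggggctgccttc
In Nop2 the E-box starts 60 bases before the gene start, in Utp18 20 bases, in Imp4 121 bases and in Rrn3 48 bases, with a second copy in Rrn3 at 215 bases. Nop2 and Utp18 are both among the genes that were higher with DAPT, and Imp4 and Rrn3 did not pass the test. Exosc5, whose stretch is not printed, also has an E-box before the gene start, at 44 bases, and its change was -0.11. The remaining holders were Pes1, Pno1, Tsr1, Ltv1, Utp20 and Wdr43, where the E-box lies after the start. The 8 tested genes with the E-box had a median change of 0.49 and the 31 tested genes with a promoter but no E-box had 0.44, so the changes of both kinds lay close together. A match is a run of letters, and binding was not measured here.

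With DAPT, 5 of the 45 tested genes rose and 1 fell at an adjusted p under 0.05 (limma, Benjamini-Hochberg over all genes). Those that rose were Polr1e, Rrp9, Dkc1, Utp18 and Nop2, each between 1.71-fold and 2.12-fold, and the one that fell was Nop10, by 1.80-fold. Among all genes tested, 2.83% rose and 4.0% fell, so higher genes made up 41.4% of all calls (69.7% with median centring and 27.1% with scale normalization). The median change of the 45 was 0.38 against -0.06 for all genes, and 41 of 45 (91.1%) had a change above 0 against 43.3% of all genes. Both DAPT arrays lay above both vehicle arrays for 33 of the 45 (21.9% of all genes) and below both for 1 (31.9% of all genes). The median log2 ratio of the 45 was 0.03 and 0.18 on the vehicle arrays and 0.48 and 0.57 on the DAPT arrays. The shift was thus broad and small: 17 changes reached 0.5, 24 lay between 0 and 0.5, and 4 lay at or below 0. The 95% interval of the change lay above 0 for 22 genes, below 0 for 1 and held 0 for 22. At the matching unadjusted p under 0.05 (limma), 2145 of all 21459 genes were higher and 2822 lower. Polr1e, Dkc1 and Imp4 were bright enough only through the DAPT arrays; over the 42 genes well above background on all 4 arrays the median change was 0.36, 38 changes lay above 0 and Rrp9, Utp18 and Nop2 rose. Without DAPT 2 the median change was 0.33. With 13 spots of high local background on DAPT 2 kept, none of the 45 passed (limma). There 8 were higher and 1 lower at an unadjusted p under 0.05, a level that 2347 of all 21459 genes reached in either direction.

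**Figure D1:**
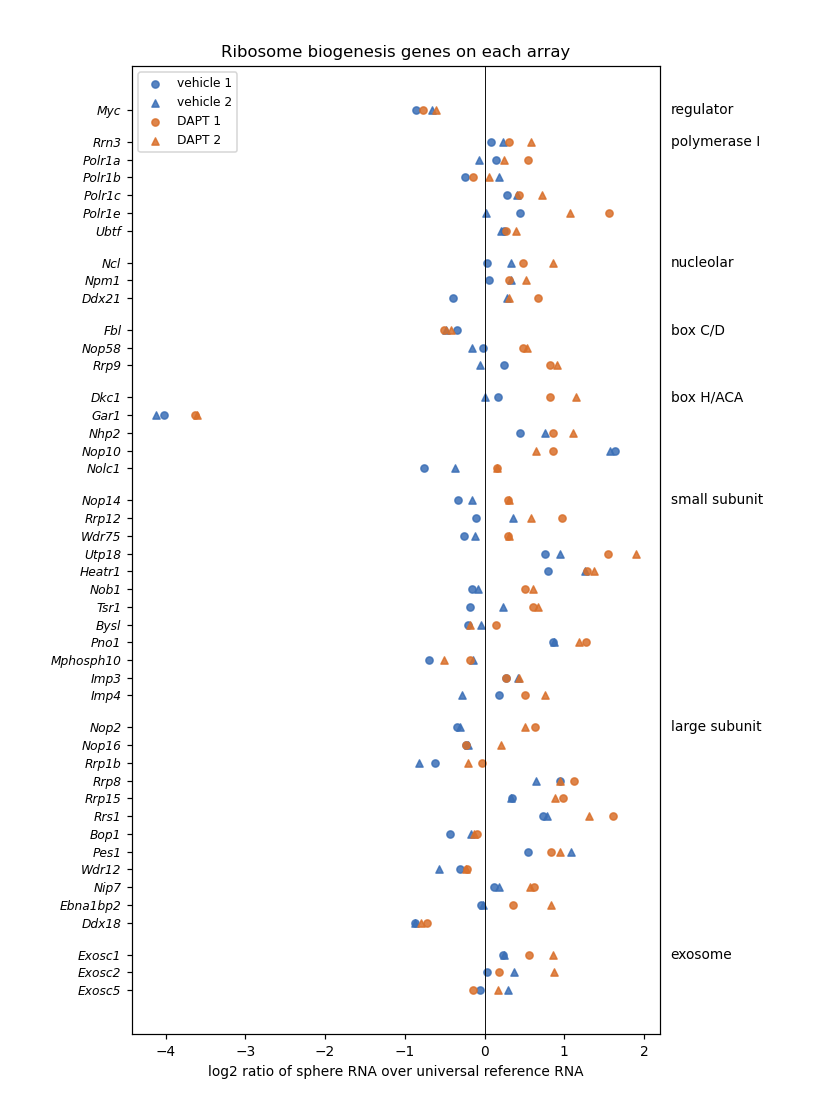
Log2 ratio of sphere RNA over universal reference RNA (x axis) for each of the 45 tested ribosome biogenesis genes (y axis, grouped by step), with 1 point for each of the 4 arrays, coloured by vehicle or DAPT. For 33 genes both DAPT points lie to the right of both vehicle points, for Nop10 both lie to the left, and Gar1 stands far to the left on all 4 arrays.

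Several measures of the arrays moved with the groups. The median spot stood 1.94 and 1.82 times over its background in red with vehicle, and 2.85 and 2.42 times with DAPT. The scanner software marked 12.0% and 42.2% of these genes' spots as non-uniform or outlying on the vehicle arrays and 75.9% and 78.3% on the DAPT arrays. Over all probe spots the shares were 11.5% and 29.2% with vehicle and 49.6% and 50.9% with DAPT. All 4 arrays lay on 1 slide and were scanned together, but the vehicle arrays sat at positions 4 and 3 and the DAPT arrays at 2 and 1, so position and treatment cannot be told apart. Among cell markers, Krt5, a keratin of basal cells, had log2 ratios of 4.67 and 4.63 with vehicle and 4.67 and 5.17 with DAPT, and Krt14 lay between 3.88 and 4.52 on all 4 arrays. Of the 7 basal markers tested, Ngfr alone lay below the reference on all 4 arrays (-0.17, -0.20, -0.39 and -0.53), and Krt15 fell by 1.08. Luminal markers were also far above the reference with vehicle, at 5.67 and 5.65 for Krt19 and 4.01 and 3.74 for Tmprss2, so these ratios do not set basal cells apart from luminal ones. Of 9 proliferation genes, 8 rose, with a median change of 0.94 (4 rose without DAPT 2), while 7 of 9 fibroblast genes fell, with a median change of -1.45. The median log2 ratio of the fibroblast list was -0.62 and -0.19 with vehicle and -1.74 and -1.55 with DAPT, and that of the proliferation list was -0.34 and -0.27 against 0.64 and 0.79. The part of the proliferating cells, the fibroblast markers and the spot marks in the changes of the ribosome genes was not tested, and in such bulk RNA fewer cells of a type and less RNA per cell cannot be told apart.

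Myc, the transcription factor that acts upstream of the pathway, did not pass the test on its brightest probe. Its log2 ratio was -0.87 and -0.66 on the vehicle arrays and -0.78 and -0.61 on the DAPT arrays. The groups overlap, and the change was 0.07 ± 0.20 (SE, n = 2 arrays a group; 95% interval -0.36 to 0.50; limma, adjusted p = 0.873). Its 2 further probes had changes of -0.32 and -0.39, which did not pass either, so the probes disagree in sign. The interval of the brightest probe holds 0 and leaves out changes above 0.50 or below -0.36.

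Among 11 further genes listed for the Myc network, 1 fell and none rose, with a median change of -0.21. Mycl, a paralog of Myc, fell from log2 ratios of -1.23 and -0.89 to -1.97 and -1.68, a change of -0.77 ± 0.21 (SE; limma, adjusted p = 0.0484). Read by channel, Mycl changed by -0.50 in red and by 0.27 in green, so part of the fall lay in the reference dye. Mxd1, which competes with Myc for Max, changed by -0.84 and Max itself by -0.54, and neither passed the threshold (limma, adjusted p = 0.0721 and 0.118). Mycn changed by -0.01.

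RNA polymerase I transcription was represented by 6 genes, of which 1 rose, with a median change of 0.27. Polr1e, a subunit of polymerase I that helps it initiate and elongate, had log2 ratios of 0.45 and 0.01 with vehicle and 1.56 and 1.07 with DAPT. Both DAPT arrays were above both vehicle arrays, and the change of 1.09 ± 0.23 (SE, n = 2 a group; 2.12-fold; limma, adjusted p = 0.0152) passed. This probe was dim: it was well above background in red on 1 of the 2 vehicle arrays and on both DAPT arrays, so the brightness filter kept it only through the group where it is high. It also passed with no such filter. Under median centring of each array in place of loess its change was 0.34 and did not pass. The other members of the step lay lower. Polr1b, the second largest subunit, overlapped between the groups, at -0.25 and 0.18 with vehicle and -0.14 and 0.05 with DAPT, a change of -0.01 ± 0.21 (SE; limma, adjusted p = 0.985). Changes were 0.36 for Polr1a, the largest subunit, 0.30 for Rrn3, which makes the polymerase able to initiate, 0.24 for Polr1c, which polymerase III shares, and 0.11 for Ubtf, which shapes active ribosomal DNA. None of these 4 passed. A second probe of Ubtf had a change of -0.15. Over all 15 polymerase I subunits and factors on both lists, 2 rose (Polr1e and Tcof1), none fell and the median change was 0.20.

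The 3 abundant nucleolar proteins had a median change of 0.49, and none passed. Ddx21, an RNA helicase of the nucleolus, had log2 ratios of -0.40 and 0.28 with vehicle and 0.67 and 0.31 with DAPT. Both DAPT arrays were above both vehicle arrays, though vehicle 2 came close to DAPT 2, and the change was 0.55 ± 0.25 (SE; limma, adjusted p = 0.204). Its 2 further probes changed by 0.54 and 0.76, and the last passed when every probe was tested (limma, adjusted p = 0.0400). Ncl, which binds nascent ribosomal RNA, changed by 0.49. Its further probes changed by 0.13, 0.27 and 0.83, and none of them passed when every probe was tested. Npm1, a histone and ribosome chaperone, changed by 0.22 ± 0.20 (SE; limma, adjusted p = 0.562), with 0.06 and 0.33 on the vehicle arrays and 0.31 and 0.52 on the DAPT arrays.

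Of the box C/D genes, whose particles methylate ribosomal RNA and help cut it, 1 of 3 rose. Rrp9, a protein of the U3 particle that cuts the precursor, had log2 ratios of 0.25 and -0.05 with vehicle and 0.83 and 0.91 with DAPT. The groups did not overlap, and the change was 0.77 ± 0.20 (SE, n = 2 a group; 1.71-fold; limma, adjusted p = 0.0392). It did not pass without vehicle 2 (change 0.62), without DAPT 1 (0.81) or without DAPT 2 (0.73). Nop58, a core protein of all box C/D particles, changed by 0.59 and did not pass (limma, adjusted p = 0.0891). Fbl, the methyltransferase of the same particles, overlapped between groups, at -0.34 and -0.49 with vehicle and -0.51 and -0.42 with DAPT, a change of -0.05 ± 0.19 (SE; limma, adjusted p = 0.907). The catalytic and the scaffold protein of the same particle thus had values of different sign, and the difference between them was not tested.

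The box H/ACA genes, whose particles pseudouridylate ribosomal RNA, held a rise and a fall. Dkc1, the pseudouridine synthase, went from log2 ratios of 0.16 and 0.01 with vehicle to 0.81 and 1.15 with DAPT. The change was 0.90 ± 0.21 (SE, n = 2 a group; 1.86-fold; limma, adjusted p = 0.0216), and a second probe, as dim, changed by 1.09 (limma, adjusted p = 0.0126). Dkc1 was well above background in red on 1 vehicle array and both DAPT arrays, so it too was kept only through the group where it is high, and it also passed with no filter. It did not pass without vehicle 2 (0.82) or without DAPT 2 (0.73), and changed by 0.43 under median centring. Nop10, the smallest protein of the same core, was the only listed gene that fell. Its log2 ratios of 1.64 and 1.57 with vehicle dropped to 0.86 and 0.65 with DAPT, a change of -0.85 ± 0.20 (SE, n = 2 a group; limma, adjusted p = 0.0222). It did not pass without DAPT 2 (-0.75) or under median centring (-0.47). Core proteins of one particle thus moved in opposite directions on these arrays.

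The other 3 genes of the box H/ACA step had changes above 0 and did not pass. Nolc1, the chaperone that moves the particles, had log2 ratios of -0.76 and -0.37 with vehicle and 0.16 and 0.15 with DAPT, a change of 0.72 (limma, adjusted p = 0.0563). Nhp2, a core protein, changed least, by 0.38 ± 0.21 (SE; limma, adjusted p = 0.302), from 0.44 and 0.76 to 0.85 and 1.11. Gar1, the fourth core protein, changed by 0.46, but its ratios stood apart from all others, at -4.02 and -4.12 with vehicle and -3.63 and -3.60 with DAPT. Its green reference signal lay between 13.7 and 14.1 (log2) and its red sphere signal between 9.64 and 10.2, so the probe was far brighter in the reference on all 4 arrays.

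**Figure D2:**
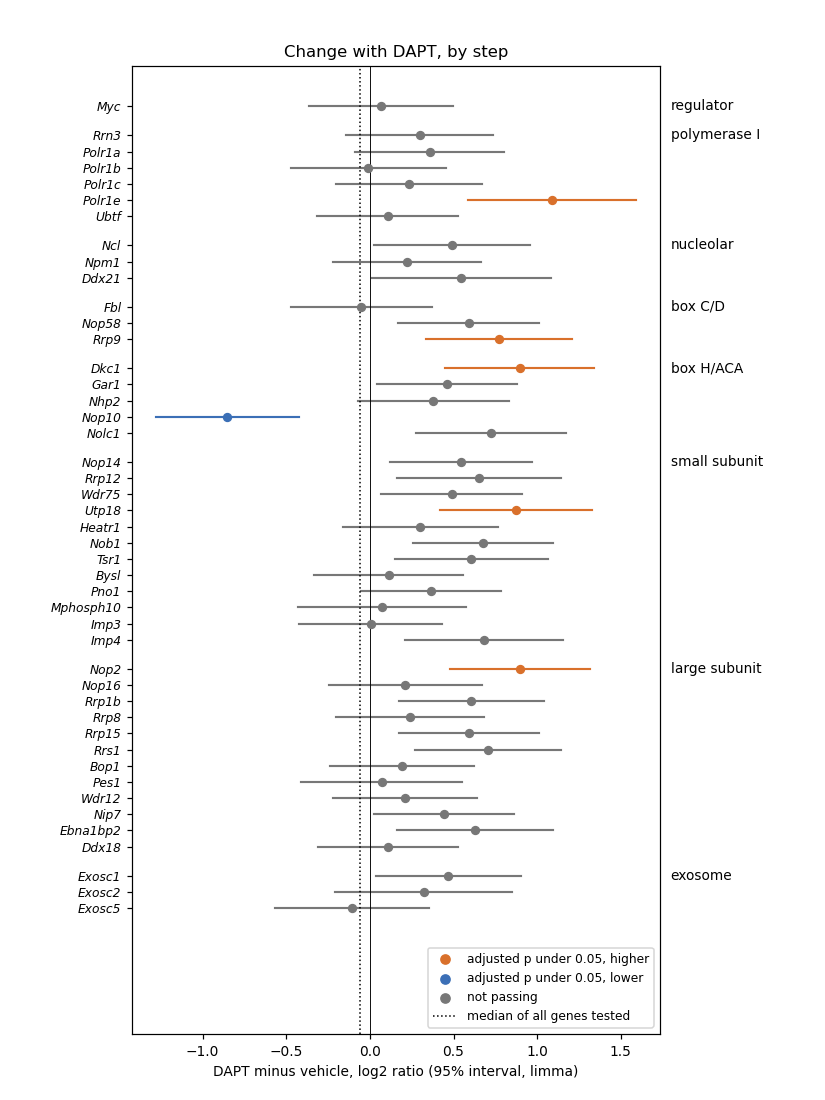
Change of each of the 45 tested genes, DAPT minus vehicle in log2 ratio (x axis), with its 95% interval from limma, grouped by step on the y axis; orange points rose, blue fell and grey did not pass, and the dotted line is the median of all genes tested. The points of all 12 small subunit and all 12 large subunit genes lie above 0, and Nop10 lies alone at -0.85.

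Small subunit assembly was measured by 12 genes, all with a change above 0, of which 1 passed. The median change was 0.52. Utp18, a WD-repeat protein that brings the nuclear exosome to the small subunit precursor, had log2 ratios of 0.75 and 0.94 with vehicle and 1.54 and 1.90 with DAPT. Both DAPT arrays lay above both vehicle arrays, and the change was 0.87 ± 0.21 (SE, n = 2 a group; 1.83-fold; limma, adjusted p = 0.0257). It did not pass without vehicle 1 (0.78) or without DAPT 2 (0.70), and with high-background spots kept it was 0.29. Imp3, a protein of the U3 particle, had the smallest change of the step, 0.0056 ± 0.20 (SE; limma, adjusted p = 0.990), at 0.26 and 0.43 with vehicle and 0.27 and 0.43 with DAPT. Its partner Imp4 had 0.18 and -0.28 with vehicle and 0.51 and 0.76 with DAPT, but it was not well above background on either vehicle array and no fold is given for it.

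The remaining 9 small subunit genes lay between these. Nob1, the nuclease that makes the last cut in the ribosomal RNA of the small subunit, changed by 0.67, from -0.15 and -0.08 to 0.51 and 0.61, and did not pass (limma, adjusted p = 0.0562). Rrp12, an export factor, changed by 0.65, Tsr1, a late assembly factor, by 0.61, and Nop14, an early one, by 0.55. A second probe of Nop14 changed by 0.78 and passed when every probe was tested (limma, adjusted p = 0.0487). Wdr75, an early assembly factor, changed by 0.49, Pno1, the partner of Nob1, by 0.37 and Heatr1, a large early factor, by 0.30. Bysl, a late assembly factor, and Mphosph10, which binds Imp3 and Imp4, changed by 0.11 and 0.07 on their brightest probes, with overlapping groups. Further probes of Bysl changed more, by 0.59 and 0.53, with both DAPT arrays above both vehicle arrays. Neither passed when every probe was tested (limma, adjusted p = 0.0877 and 0.151). A further kept probe of Mphosph10 changed by 0.15.

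Large subunit assembly also had 12 tested genes, all with a change above 0 and 1 past the threshold, with a median change of 0.34. Nop2, which methylates a cytosine of the large ribosomal RNA, had log2 ratios of -0.34 and -0.31 with vehicle and 0.64 and 0.51 with DAPT. Replicates of each group lay close together, and the change was 0.90 ± 0.19 (SE, n = 2 a group; 1.86-fold; limma, adjusted p = 0.0159). Nop2 and Polr1e also passed with each array left out in turn, where the lone array left in a group is assumed to vary like the other group, so this is a weak check. Pes1, of the complex with Bop1 and Wdr12 that processes the large subunit precursor, had the smallest change, 0.07 ± 0.22 (SE; limma, adjusted p = 0.885), from 0.55 and 1.08 to 0.83 and 0.94 with overlapping groups. Bop1 changed by 0.19 and Wdr12 by 0.21, so none of the 3 proteins of that complex passed.

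Among the other 8 large subunit genes, 4 came near the threshold and did not pass. Rrs1, which brings the 5S particle to the precursor, changed by 0.71 (limma, adjusted p = 0.0553), from 0.74 and 0.78 to 1.62 and 1.31. Ebna1bp2, Rrp1b and Rrp15, assembly factors, changed by 0.63, 0.61 and 0.59. A second probe of Ebna1bp2 changed by only 0.14, with overlapping groups, and a second probe of Rrp1b by 0.56. Nip7, which joins the precursor early, changed by 0.44, Rrp8, a methyltransferase, by 0.24, Nop16, a nucleolar assembly factor, by 0.21 and Ddx18, an RNA helicase, by 0.11. The changes of this step ran from 0.07 for Pes1 to 0.90 for Nop2.

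The nuclear exosome, which trims the ends of ribosomal RNA precursors, was represented by 3 subunits, none of which passed. Exosc1 had 0.24 on both vehicle arrays and 0.56 and 0.86 on the DAPT arrays, a change of 0.47 ± 0.20 (SE; limma, adjusted p = 0.182). Exosc5 had -0.05 and 0.29 with vehicle and -0.14 and 0.17 with DAPT, a change of -0.11 ± 0.21 (SE; limma, adjusted p = 0.809). Exosc2 changed by 0.32. Over the 11 exosome subunits of both lists, 1 rose, the nuclease Dis3 by 0.74, none fell, and the median change was 0.32.

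A ratio can move through either dye, so each channel was read on its own, after loess and Aquantile normalization. In the red sphere channel the 45 genes had a median change of 0.48 against -0.04 for all genes, and 40 of 45 lay above 0. In the green reference channel, where the same RNA was on every array, the medians were 0.03 and 0.03, and 27 of 45 lay above 0. Both DAPT arrays were above both vehicle arrays for 20 of the 45 in red, against 21.4% of all genes, and for 7 in green, against 21.9% of all genes. None of the 45 passed in the red channel alone with limma (5 were higher and 1 lower at an unadjusted p under 0.05), where 2 of all genes passed and 2622 had an unadjusted p under 0.05. In the green channel none of the 45 had an unadjusted p under 0.05, and of all genes none passed with limma and 1707 had an unadjusted p under 0.05.

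For the called genes the channels can be followed array by array. The red signal of Nop10 was 11.6 and 10.8 (log2) with vehicle and 10.4 and 10.3 with DAPT, while its green signal ran between 9.26 and 9.91, with changes of -0.84 in red and 0.02 in green. Polr1e changed by 1.11 in red and 0.03 in green, Dkc1 by 0.80 and -0.10, and Utp18 by 0.76 and -0.11. In Nop2 both dyes varied together between replicates: its red signal was 10.4 and 8.67 with vehicle and 11.3 and 9.67 with DAPT, and its green signal was 10.7 and 8.98 against 10.7 and 9.16. Rrp9 changed by 1.11 ± 0.53 (SE) in red and by 0.34 in green, the largest green change of the called genes. Its red signal was 10.4 and 8.85 with vehicle and 10.4 and 11.1 with DAPT, so the groups overlap in red and vehicle 2 was low. Its green signal was 10.1 and 8.90 against 9.55 and 10.2.

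**Figure D3:**
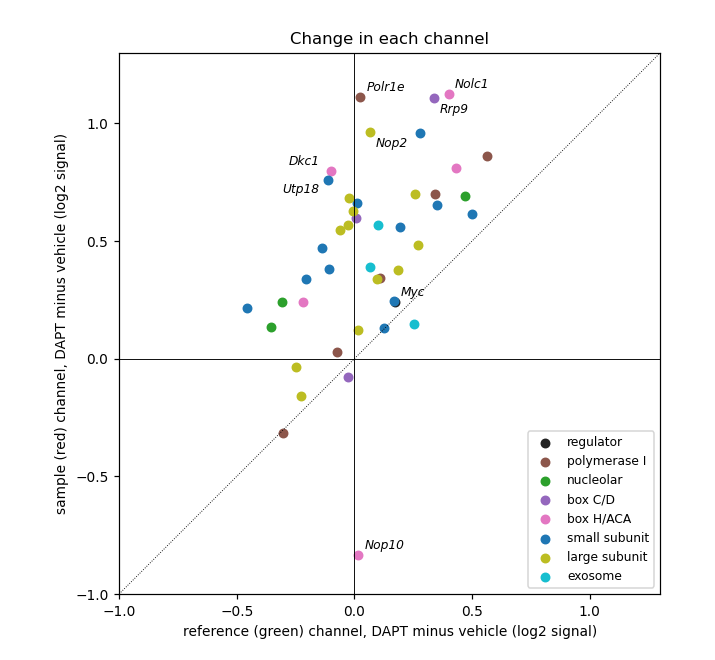
Change in the red sphere channel against change in the green reference channel (both DAPT minus vehicle, log2) for the 45 tested genes, coloured by step. The called genes are named, as are Myc and Nolc1, which did not pass. The points spread along the red axis around a median of 0.48 and lie around a median of 0.03 on the green axis.

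A longer list of 111 other ribosome biogenesis genes, also chosen with earlier results of these data known, was read in the same fit. Of the 108 tested, 14 rose and none fell, with a median change of 0.30 and 86 above 0, against the 2.83% and 4.0% of all genes. The count was 9 without vehicle 1, where 2 fell, and 6 without DAPT 2. It was 29 with median centring, 5 with processed intensities, where 1 fell, 0 with the red channel alone (limma; 23 higher and 1 lower at an unadjusted p under 0.05) and 0 with high-background spots kept, where the median change was 0.19. Krr1, a small subunit assembly factor, rose most, from -0.16 and 0.23 to 1.16 and 1.57, a change of 1.33 ± 0.22 (SE; limma, adjusted p = 0.00417). Mybbp1a, a nucleolar Myb-binding protein, rose by 1.23, and Wdr36 and Ppan, of the small and large subunit, by 1.21 each. The other 10 that rose were Ftsj3, Nat10, Tcof1, Nol10, Lyar, Rcl1, Wdr3, Efl1, Dis3 and Aatf. Of these, Efl1 changed by -0.02 in red and by -0.78 in green. Ftsj3 was well above background in red on 1 vehicle array and both DAPT arrays. The brightness filter thus kept it only through the group where it is high. With the filter on all 4 arrays, 16 of 102 genes of this list rose and none fell.

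The cytosolic ribosomal proteins, the products these factors assemble, had a lower median ratio change than the listed genes. Of 81 tested, none rose and 1 fell at the threshold (limma), against 2.83% and 4.0% of all genes. At an unadjusted p under 0.05 (limma) none was higher and 8 were lower, where 2145 of all 21459 genes were higher and 2822 lower. The median change was -0.15, and 20 (24.7%) lay above 0 against 43.3% of all genes. Both DAPT arrays were below both vehicle arrays for 33 of the 81, against 31.9% of all genes, and above both for 9, against 21.9% of all genes. Rpl39l, a close copy of Rpl39, was the one that fell, from -1.62 and -1.08 to -2.56 and -2.67, and it changed by -0.50 in red and 0.76 in green. Whether its probe also reads Rpl39 was not tested. By channel, the 81 genes had a median change of -0.04 in red, as had all genes, and of 0.12 in green against 0.03 for all genes. A lower median than that of all genes was thus not seen in the sphere dye alone. The direction of the list's ratio also depends on the scaling: with median centring its median was 0.32, above the 0.11 of all genes, with 6 called higher and 1 lower.

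**Figure D4:**
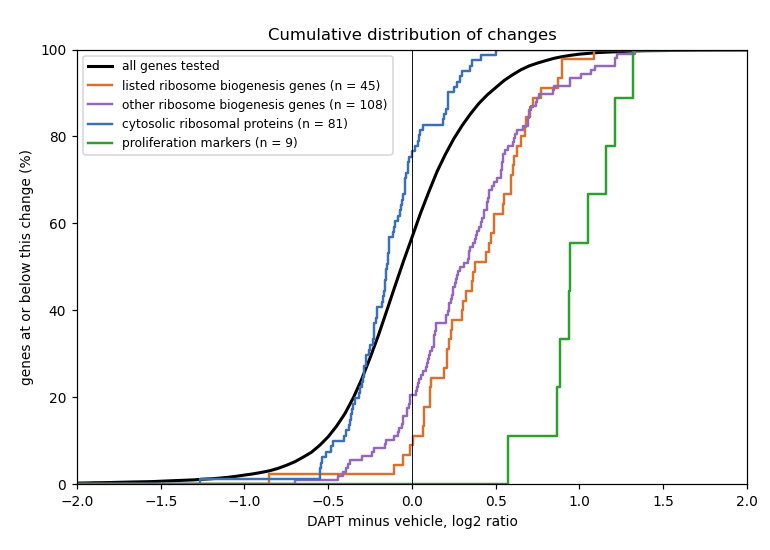
Cumulative percentage (y axis) of genes at or below a given change, DAPT minus vehicle in log2 ratio (x axis), for the 45 listed genes, the 108 other biogenesis genes, the 81 ribosomal proteins, the 9 proliferation markers and all 21459 genes. The medians are 0.38, 0.30, -0.15, 0.94 and -0.06.

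The size of the shift held more steadily than the number of calls. Over the alternatives to background correction, normalization, filter, probe choice, design and samples, the median change of the listed genes ran from 0.29 to 0.68, above that of all genes in each. The number of listed genes called higher ran from 0, with the red channel alone or with 13 high-background spots of DAPT 2 kept, to 19 with median centring. Leaving out all marked spots left 9 of the 45 to test, all with changes above 0, a median change of 0.57 and Polr1e and Dkc1 past the threshold.

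**Figure D5:**
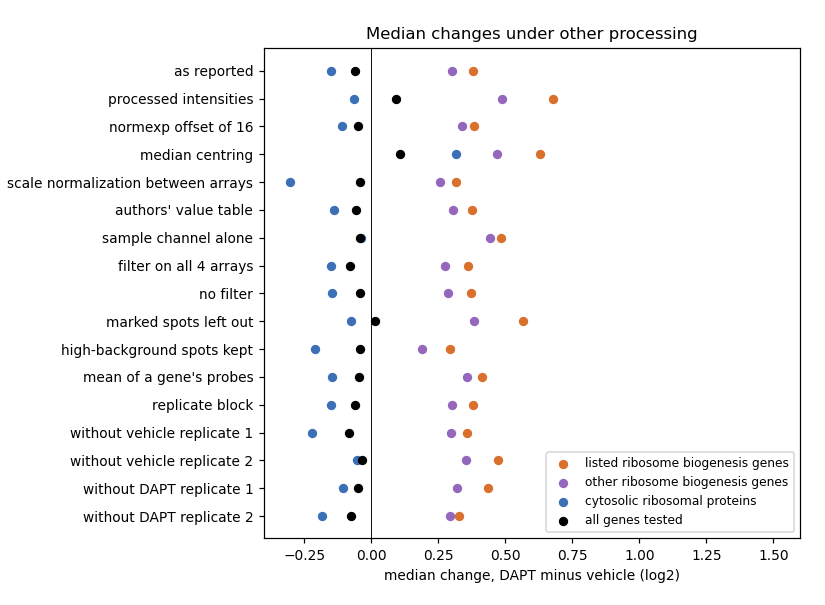
Median change, DAPT minus vehicle in log2 (x axis), under each processing choice (y axis) for the listed ribosome biogenesis genes, the other biogenesis genes, the cytosolic ribosomal proteins and all genes tested. The median of the listed genes lies between 0.29 and 0.68, to the right of that of all genes in every line, while the ribosomal proteins lie left of all genes except with median centring, where they lie to the right, and with the sample channel alone, where the points coincide.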

How the data were processed

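Per the file headers, Agilent Feature Extraction 10.7.3.1 wrote each array's spot and local background intensity for both dyes, not normalized, and a log10 ratio of red over green. A value table that the authors deposited gives log2 values per spot. It correlated at 0.9996 to 0.9998 with the log2 ratios computed here, its column medians were -0.0053, -0.016, -0.020 and -0.016. Its normalization is not stated in the labels or files.

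Median spot and background intensities were corrected with limma 3.58.1 (R 4.3.3) normexp, offset 50, followed by loess within arrays (control spots weighted 0). Before that, 13 spots of DAPT 2 whose local background exceeded 5 times that array's median were set missing. Repeated spots were averaged per probe. Probes had to be well above background in red on both vehicle or on both DAPT arrays, and each gene was represented by its brightest such probe. Of the listed genes, Polr1e, Dkc1 and Imp4 passed this filter through the DAPT group only. Probes were named through RefSeq accessions (GRCm38.p6; 24375 of 41174 probes). Groups were compared with lmFit and eBayes, two-sided, with Benjamini-Hochberg adjustment over 21459 genes and a threshold of 0.05, and the fit was tested on simulated data. Residual degrees of freedom were 2 per gene, with 10.5 from the eBayes prior. With 4 arrays, their number limits the precision. No probe spot was saturated.

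Log ratios of all genes correlated at 0.921 within vehicle, 0.943 within DAPT and 0.838 to 0.878 between groups. The numbers of the replicates did not pair the arrays (correlation of same-numbered deviations 0.086). Promoter sequences are those of RefSeq. The gene list and the other lists were chosen with earlier results of these data known. Full values are given for Myc, each called gene and the genes with the largest and smallest change of a step.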

Additional observations from a re-analysis of the deposited data

How the results depend on the processing

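Of all genes, 607 rose and 859 fell, and of the listed genes 5 rose and 1 fell with a median change of 0.38. With the scanner's processed intensities these were 286, 333, 2, 0 and 0.68, with median centring 1208, 526, 19, 0 and 0.63, with the sample channel alone 0, 2, 0, 0 and 0.48, with marked spots left out 320, 211, 2, 0 and 0.57 (6911 genes tested), and with high-background spots kept 4, 87, 0 and 0, where the median change was 0.29. The cause of the last was not tested. Scale normalization gave 367 higher genes of all, and an adjusted p of 0.1 gave 1127 higher and 1515 lower with 13 listed genes higher. Listed genes called higher were 3 with an offset of 16, 3 with the filter on all 4 arrays and 8 with the replicate block. Of calls over all genes, 41.4% were higher as reported, 69.7% with median centring, 27.1% with scale normalization, 46.2% with processed intensities, 60.3% without marked spots and 4.40% with high-background spots kept. Leaving out each array in turn gave 453 to 806 higher and 671 to 1052 lower genes, 2 to 7 listed genes higher, 0 to 1 lower, and median changes of 0.33 to 0.47, the lowest counts of listed genes without DAPT 2. The authors' deposited table, no filter and the mean of a gene's probes kept all 6 calls on listed genes. No called gene changed sign, and Nop2 lost its call only with the red channel alone and with high-background spots kept. Among genes not called, Myc changed by -0.22 with the mean of its probes. A slide or scan block was not run, since 1 slide and 1 scan held all arrays.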

Other observations

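The 18 listed genes with 2 or more kept probes had 26 further probes. Of these, 22 had the sign of the brightest probe and 4 the opposite sign: both further probes of Myc, and 1 each of Ubtf (-0.15) and Pes1 (-0.17). When every probe was tested, 3 further probes passed (limma), of Ddx21, Dkc1 and Nop14.

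Among markers of other cells, Krt19, a luminal keratin, fell by 1.11, and Krt15, a basal keratin, fell by 1.08. Of 6 luminal markers tested, 2 fell and none rose, with a median change of -0.41 and a lowest change of -1.73. Of 7 basal markers tested, 1 fell and none rose, with a median change of 0.04. The immune marker Ptprc had a change of 0.04, and Cdh5 and Kdr, of endothelial cells, were not kept.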
